A study of Mus musculus with 13 samples.

Results

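Semaphorins, plexins, ephrins and Eph receptors are the guidance ligands and receptors that growing axons and growing vessels share. Arrays of mouse retina gave their expression in 3 groups: 6 tip samples, 4 stalk samples and 3 samples of nonvascular retina. The members are all genes with a symbol of the Sema3 to Sema7, Plxna to Plxnd, Efna, Efnb, Epha or Ephb series on the array: 45 of 33578 genes, with 18 semaphorins, 6 plexins, 7 ephrins and 14 Eph receptors on 61 probes. No probe carried the symbols Efna3, Plxnb2, Plxnb3, Plxnd1, Sema3g or Sema4c by this rule, so these genes were not analysed here. Each 2-colour array held a sample in Cy5 and a commercial pool of mouse RNA, Universal Mouse Reference RNA, in Cy3, and levels are log2 ratios of sample over that pool. A level of 0 therefore means the same signal as in the pool after the correction and scaling of each array, and levels of different genes cannot be ranked against each other. A probe with little signal in both colours can also lie near 0.

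The tip samples carry the name of the cells at the front of a vessel sprout, the stalk samples that of the cells behind them, and the nonvascular retina is labelled as the control. The strain, genotype, age and number of mice and the way the cells were collected are not given in the sources used here. All tip samples have 1 source name, as have all stalk and all nonvascular samples. Nothing says that the samples of a group came from separate animals, so p-values measure only the spread between these samples, which may be technical. The arrays were scanned in the order stalk, tip, nonvascular, so the order of scanning and the groups cannot be told apart, and tip replicate 5 was scanned on another day than the other 12 arrays.

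Markers of other cells differed between the groups. The linear sample over pool ratios of 12 endothelial markers summed to 98.1 to 136 in tip samples, 144 to 168 in stalk samples and 19.4 to 31.9 in nonvascular retina. Among these markers 2 were lower in tip than in stalk samples and none was higher. Of 12 pericyte and smooth muscle markers, 8 were lower in tip than in stalk samples and none was higher. Their sum was 35.6 to 54.5 in tip samples, 70.7 to 82.5 in stalk samples and 8.24 to 9.68 in nonvascular retina. For 12 retinal ganglion cell markers it was 19.5 to 32.6 in tip samples, 12.5 to 28.1 in stalk samples and 137 to 189 in nonvascular retina. No endothelial, pericyte or ganglion cell marker was below background on every array of a group, so these markers were measurable in all 3 groups. For 8 astrocyte markers the sum was 36.7 to 55.7 in tip samples, 63.5 to 75.8 in stalk samples and 10.3 to 33.4 in nonvascular retina, where replicate 3 stood apart at 33.4 from 10.3 and 11.3. For 9 markers of Mueller glia and progenitors it was 65.4 to 87.8 in tip samples, 94.1 to 110 in stalk samples and 41.6 to 117 in nonvascular retina. Between tip and stalk, none of these astrocyte markers was called, and 1 Mueller glia marker, Glul, was lower in tip samples. Median differences between tip and stalk were -0.05 for the astrocyte and 0.05 for the Mueller glia list. A sum weighs most the genes with the highest ratios. S100b, the astrocyte marker with the highest ratio, differed by -0.94, Pdgfra and Aldh1l1 by 0.58 and 0.67, and the others by -0.11 to 0.08. In samples of mixed cells, fewer cells of a type and less RNA per cell cannot be told apart.

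Semaphorins are secreted or membrane-bound ligands, and most of them bind plexins, which act through small GTPases on the actin cytoskeleton and on integrins. The secreted class 3 semaphorins mostly need neuropilins as co-receptors. Ephrins are ligands tethered to the cell surface by a lipid anchor (ephrin-A) or a transmembrane segment (ephrin-B), and they signal through Eph receptor tyrosine kinases on the cell they touch, often by repulsion. Signals can also run back into the cell that carries the ephrin. In the retina these families guide ganglion cell axons and shape neurite layers. In vessels they are known for ephrin-B2 and EphB4, which mark arteries and veins, and for Sema3E acting on Plexin-D1.

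To be tested, a gene's probe had to be well above background in red, the colour of the sample, on no fewer than 3 of the 13 arrays, as it was for 43 of the 45 members. Sema3c, a secreted ligand, was well above background on 2 of 13 arrays, and Sema3d, another secreted ligand, on none, so neither has a value. Differences come from 1 limma fit over 32035 genes, and a gene was called where its adjusted p was under 0.05. Of these 32035, 16548 had a gene symbol, and the others kept the name given on the array. Shares of all genes include both kinds, while every member has a symbol, so the 2 sets are not alike in this.

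The comparison of tip with stalk samples asks which guidance genes differ between the front of a sprout and the vessel behind it. In tip samples 4 of 43 members were higher, namely Sema3f, Sema4d, Efna2 and Ephb1, and 1 was lower, Ephb4. The count of higher members was 1 with median centring, 2 with Feature Extraction log ratios, deposited ratios, the red channel alone or array brightness in the model, and 2 without tip replicate 2, tip replicate 3 or stalk replicate 1; that of lower members was 0 with median centring, with array brightness in the model, with only tip and stalk arrays fitted, or without tip replicate 2, 3, 4 or 5, stalk replicate 1 or nonvascular replicate 2. Of all 32035 genes, 1.47% were called higher in tip samples and 1.32% lower. The median difference was 0.07 over the members and 0 over all genes. Without overlap between the groups, 7 members lay higher in tip samples (Ephb1, Sema3f, Efna2, Ephb2, Plxna2, Plxna1 and Sema4d), as did 2.73% of all genes, and 1 lay lower (Ephb4), as did 2.74% of all genes. The split of calls over all genes moved with the scaling: 471 were higher and 422 lower in tip samples as fitted, against 49 and 203 with arrays centred on the median, 205 and 476 with the red channel alone, and 311 and 389 with the scanner software's log ratios.

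**Figure D1:**
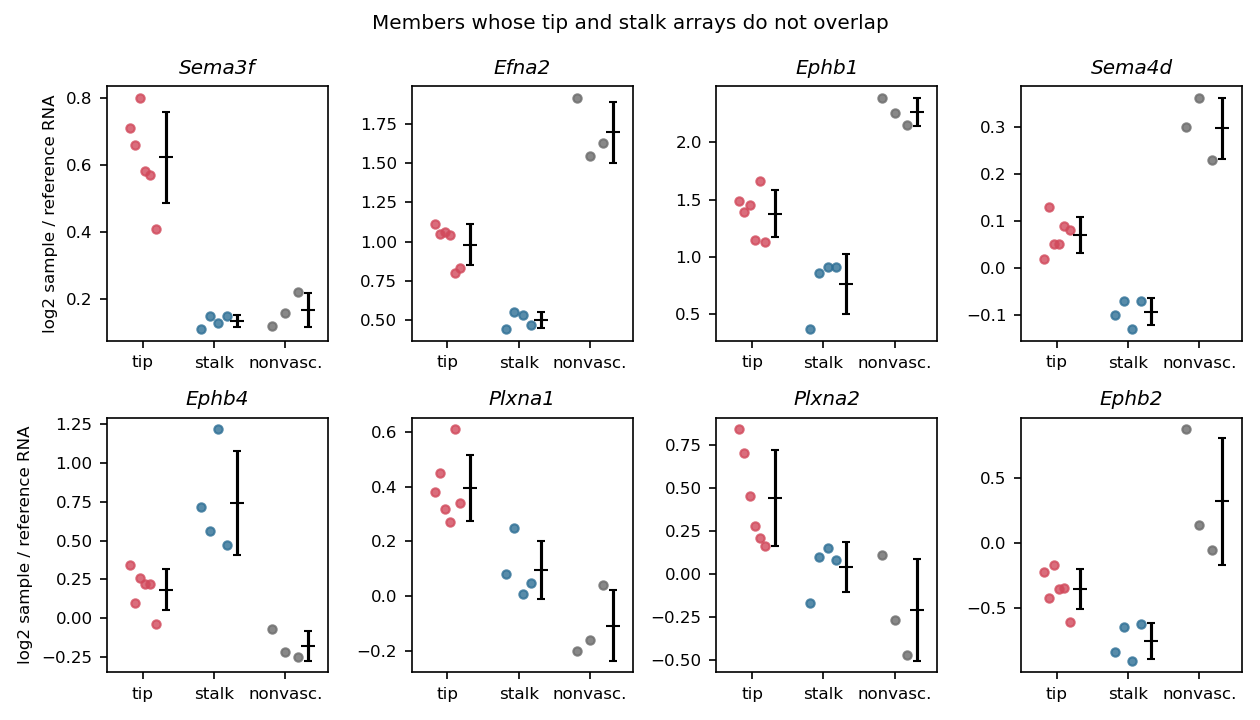
Log2 ratio of sample over reference RNA on each array for the 8 members whose tip and stalk arrays did not overlap, with tip, stalk and nonvascular arrays from left to right; bars are means ± SD (n = 6, 4 and 3), and each panel has its own vertical range. The tip arrays lie above the stalk arrays for 7 members and below them for Ephb4, and for Ephb1, Efna2, Ephb2 and Sema4d the nonvascular arrays lie higher still.

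Among the ligands, Sema3f, a secreted semaphorin that binds neuropilin-2, was higher in tip samples. Its level was 0.41 at the lowest, 0.62 at the median and 0.80 at the highest in tip samples, against 0.11, 0.15, 0.13 and 0.15 in the 4 stalk samples and 0.12, 0.16 and 0.22 in nonvascular retina. Every tip array lay above every other array, while stalk and nonvascular arrays overlapped. The difference between tip and stalk was 0.49 ± 0.06 (SE), 1.4-fold, with an adjusted p of 0.00154 in limma. A second Sema3f probe gave 0.72 ± 0.11 (adjusted p = 0.00524 in limma). That probe was also higher in stalk samples than in nonvascular retina (0.54 ± 0.13, adjusted p = 0.00738 in limma). Of the 5 members called between tip and stalk, Sema3f alone kept its call under each of the 25 alternative settings, with differences between 0.39 and 0.72.

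Efna2, which encodes ephrin-A2, a ligand of EphA receptors known from the map of retinal axons in the midbrain, was also higher in tip samples. It ran from 0.80 over a median of 1.04 to 1.11 in tip samples, against 0.44, 0.55, 0.53 and 0.47 in stalk samples and 1.92, 1.55 and 1.63 in nonvascular retina. The 3 groups were separate, with nonvascular retina highest and stalk samples lowest. The difference between tip and stalk was 0.48 ± 0.08, 1.4-fold (adjusted p = 0.00785). The call was lost with median centring (0.66, adjusted p = 0.0572) and with the red channel alone (0.58, adjusted p = 0.0823).

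Sema4d, a membrane-bound ligand of Plexin-B1, showed the smallest called difference of tip from stalk, 0.16 ± 0.04, 1.12-fold (adjusted p = 0.0464). Its tip arrays lay between 0.02 and 0.13 with a median of 0.07, against -0.10, -0.07, -0.13 and -0.07 in stalk samples and 0.30, 0.36 and 0.23 in nonvascular retina. The groups did not overlap, but the call was lost without any 1 of the 13 arrays other than nonvascular replicate 3, with adjusted p-values of 0.0517 to 0.135. It held under 4 of the 25 settings. Its second probe gave 0.09 ± 0.07 (adjusted p = 0.604).

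Among the receptors, Ephb1, known for turning some retinal axons at the optic chiasm, was higher in tip samples. It ran from 1.13 over a median of 1.42 to 1.66 in tip samples, against 0.37, 0.86, 0.91 and 0.91 in stalk samples and 2.39, 2.26 and 2.15 in nonvascular retina. The groups were separate in the same order as for Efna2, and stalk replicate 1 lay below the other 3 stalk arrays. The difference between tip and stalk was 0.61 ± 0.13, 1.53-fold (adjusted p = 0.0237). Without stalk replicate 1 it was 0.48 (adjusted p = 0.057), and the adjusted p was 0.0524 without tip replicate 2 and 0.0538 without tip replicate 3. The call was also lost with median centring (adjusted p = 0.112), Feature Extraction log ratios (adjusted p = 0.123), deposited ratios (adjusted p = 0.122), the red channel alone (adjusted p = 0.101) and array brightness in the model (adjusted p = 0.164). Efna2, Sema4d and Ephb1 all lay highest in nonvascular retina, as did the marker sums of ganglion, amacrine and horizontal, photoreceptor and microglia cells. Of these markers none was called between tip and stalk. Median differences were 0.38 for the ganglion cell markers and 0, -0.03 and -0.01 for the other lists in that order. Their part in these results was not tested.

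Ephb4, the receptor of ephrin-B2 that marks veins, was the member lower in tip samples. Its level lay between -0.04 and 0.34 in tip samples with a median of 0.22, against 0.72, 0.56, 1.22 and 0.47 in stalk samples and -0.07, -0.22 and -0.25 in nonvascular retina. Stalk arrays lay above all others, and tip arrays above the nonvascular ones. The difference between tip and stalk was -0.56 ± 0.13, 1.47-fold lower in tip samples (adjusted p = 0.0352). It was lost without tip replicate 2, 3, 4 or 5, stalk replicate 1 or nonvascular replicate 2, with adjusted p-values of 0.0511 to 0.085 and differences of -0.58 to -0.54; tip replicate 5 is the array of the other scan day. It was also lost with median centring (-0.60, adjusted p = 0.16), array brightness in the model (-0.63, adjusted p = 0.12) and only tip and stalk arrays fitted (adjusted p = 0.057). Of the pericyte and smooth muscle markers 8 of 12 were lower in tip samples too, and of the endothelial markers 2 of 12, with none higher. The median differences of these lists were -0.75 and -0.31, and their part in this result was not tested.

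RefSeq promoters are shown for the members of the Eph and ephrin families that differed between tip and stalk and for Epha2, the member with the largest difference between tip samples and nonvascular retina. Each is the stretch of 250 bases before the gene's start in the GRCm38.p6 build, written 5′ to 3′ on the gene's strand. Capitals mark the GC box, GGGCGG or its reverse complement CCGCCC, to which Sp1 family factors bind.
Ephb4 (chr5:137349859-137350108, plus strand): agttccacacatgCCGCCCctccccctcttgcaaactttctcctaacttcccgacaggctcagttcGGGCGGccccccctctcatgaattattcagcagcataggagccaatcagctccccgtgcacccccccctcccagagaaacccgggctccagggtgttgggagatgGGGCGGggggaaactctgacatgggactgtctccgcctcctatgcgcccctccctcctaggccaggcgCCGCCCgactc
Ephb1 (chr9:102354694-102354943, minus strand): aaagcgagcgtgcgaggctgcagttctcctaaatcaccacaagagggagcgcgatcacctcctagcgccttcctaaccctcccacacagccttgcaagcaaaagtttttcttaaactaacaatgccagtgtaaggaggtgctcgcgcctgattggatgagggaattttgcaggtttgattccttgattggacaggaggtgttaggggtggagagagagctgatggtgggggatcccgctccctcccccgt
Efna2 (chr10:80179232-80179481, plus strand): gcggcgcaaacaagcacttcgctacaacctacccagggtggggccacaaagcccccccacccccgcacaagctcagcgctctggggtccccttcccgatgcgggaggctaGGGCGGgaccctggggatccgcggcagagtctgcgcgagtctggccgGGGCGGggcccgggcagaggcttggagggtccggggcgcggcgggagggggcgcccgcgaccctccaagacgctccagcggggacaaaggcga
Epha2 (chr4:141300971-141301220, plus strand): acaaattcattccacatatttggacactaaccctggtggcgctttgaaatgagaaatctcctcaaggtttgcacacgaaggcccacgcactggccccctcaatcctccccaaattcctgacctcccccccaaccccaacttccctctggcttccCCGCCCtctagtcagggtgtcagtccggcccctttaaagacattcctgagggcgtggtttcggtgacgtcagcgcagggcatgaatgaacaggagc

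The GC box occurred 4 times before Ephb4, 2 times before Efna2, once before Epha2 and not before Ephb1. An entry of the RefSeq promoter table was found for 39 of the 45 members, with 50 windows in all; Efnb3, Plxna1, Plxna4, Sema3b, Sema3f and Sema6a had none. On either strand, 72.0% of the members' windows held a GC box, against 32.7% of all 32851 windows of this length and 42.6% of the 21263 windows of coding genes. The core of ETS sites, CGGAA, stood in 24.0% of the members' windows and 25.2% of all windows. For the AP-1 site TGANTCA the shares were 4.0% and 6.75%, and for the hypoxia element ACGTG 22.0% and 16.6%. CGGAA can overlap the GC box by its first letters. None of these 3 other motifs stood in the 4 windows printed here, and a match is a description of letters, not a bound site.

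The remaining receptors and ligands did not pass the test between tip and stalk. Plxna1, a receptor for class 3 and class 6 semaphorins, came closest, at 0.30 ± 0.07 (adjusted p = 0.0555). Its tip arrays (0.27, 0.36 and 0.61 as lowest, median and highest) lay above the stalk arrays at 0.08, 0.25, 0.01 and 0.05, and it was called without stalk replicate 2 (adjusted p = 0.0419) or nonvascular replicate 3 (adjusted p = 0.0424). Plxna2, a receptor of the same class, differed by 0.40 ± 0.15 (adjusted p = 0.174) and Ephb2, a receptor that guides retinal axons to the optic disc, by 0.40 ± 0.15 (adjusted p = 0.184), again without overlap of tip and stalk arrays. Ephb2 was called when only tip and stalk arrays were fitted (adjusted p = 0.0465) or without nonvascular replicate 1 (adjusted p = 0.043). Efna1, the ephrin-A1 gene, differed by 0.18 ± 0.06 (adjusted p = 0.155) and was called only without tip replicate 6 among the settings tried (0.23, adjusted p = 0.0219).

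Genes known from sprouting or from axon repulsion were among those that did not pass between tip and stalk. Efnb2, the arterial ligand ephrin-B2, ran from -2.06 over a median of -1.76 to -1.14 in tip samples, against -1.66, -1.94, -2.37 and -1.96 in stalk samples and -1.61, -1.82 and -2.02 in nonvascular retina. These groups overlapped, and its difference of 0.31 had a 95% interval of -0.08 to 0.69. Efnb1, which encodes ephrin-B1, ran from -0.22 over 0.20 to 0.33 in tip samples, against 0.79, 0.63, 0.42 and 0.31 in stalk samples and 0.69, -0.02 and 0.91 in nonvascular retina, with a difference between tip and stalk of -0.37 (interval -0.74 to -0.01, adjusted p = 0.266). Epha4, a receptor that binds ephrins of both classes, differed by -0.38 (interval -0.66 to -0.10, adjusted p = 0.146), and Epha2 by 0.55 (interval 0.21 to 0.89, adjusted p = 0.0832). For the ligands Sema3e, Sema3a and Sema6d the intervals were -0.29 to 0.40, 0.12 to 0.84 and -0.59 to 0.24. A rise in tip samples as large as that of Sema3f thus lies inside the intervals of Efnb2, Epha2 and Sema3a. A fall of that size lies inside those of Efnb1, Epha4 and Sema6d.

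The comparisons with nonvascular retina ask which guidance genes differ between vessel samples and retina without vessels. The tip and the stalk comparison use the same 3 nonvascular arrays, so the values of each are set side by side and their likeness is no separate evidence. In tip samples 8 of 43 members were higher and 17 lower than in nonvascular retina, where 11.1% and 16.8% of all genes were called in these directions. In stalk samples 7 were higher and 16 lower, where 11.3% and 18.6% of all genes were. With the other probe of the genes that have 2, the lower members numbered 10 in each. The median difference was -0.11 over the members in tip samples (all genes -0.01) and -0.13 in stalk samples (all genes 0). Without overlap between arrays, 8 members lay higher and 17 lower in tip samples than in nonvascular retina (11% and 16.7% of all genes), and 7 lay higher and 17 lower in stalk samples (16% and 21.3% of all genes). Of the 43 members, 5 were called higher in both, 15 lower in both and 15 in neither. Calls in both comparisons were not counted over all genes, so these counts have no share beside them and mark no trait of the members. Beside these values stand the markers: 11 of 12 ganglion cell markers were lower in tip samples and 10 of 12 in stalk samples, with medians of -2.56 and -2.98, while 11 and 10 of 12 endothelial markers were higher, with medians of 2.83 and 3.19. Of the pericyte and smooth muscle markers, 11 and 12 of 12 were higher in tip and in stalk samples, of the astrocyte markers 3 and 2 of 8, and of the Mueller glia markers 4 and 3 of 9, with 1 lower in tip samples. Of the microglia and macrophage markers, 7 and 6 of 12 were lower in tip and in stalk samples, of the photoreceptor markers 6 and 5 of 10, and of the amacrine and horizontal cell markers 5 of 11 in each, with 1 higher. Their part in the members' differences was not tested.

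**Figure D2:**
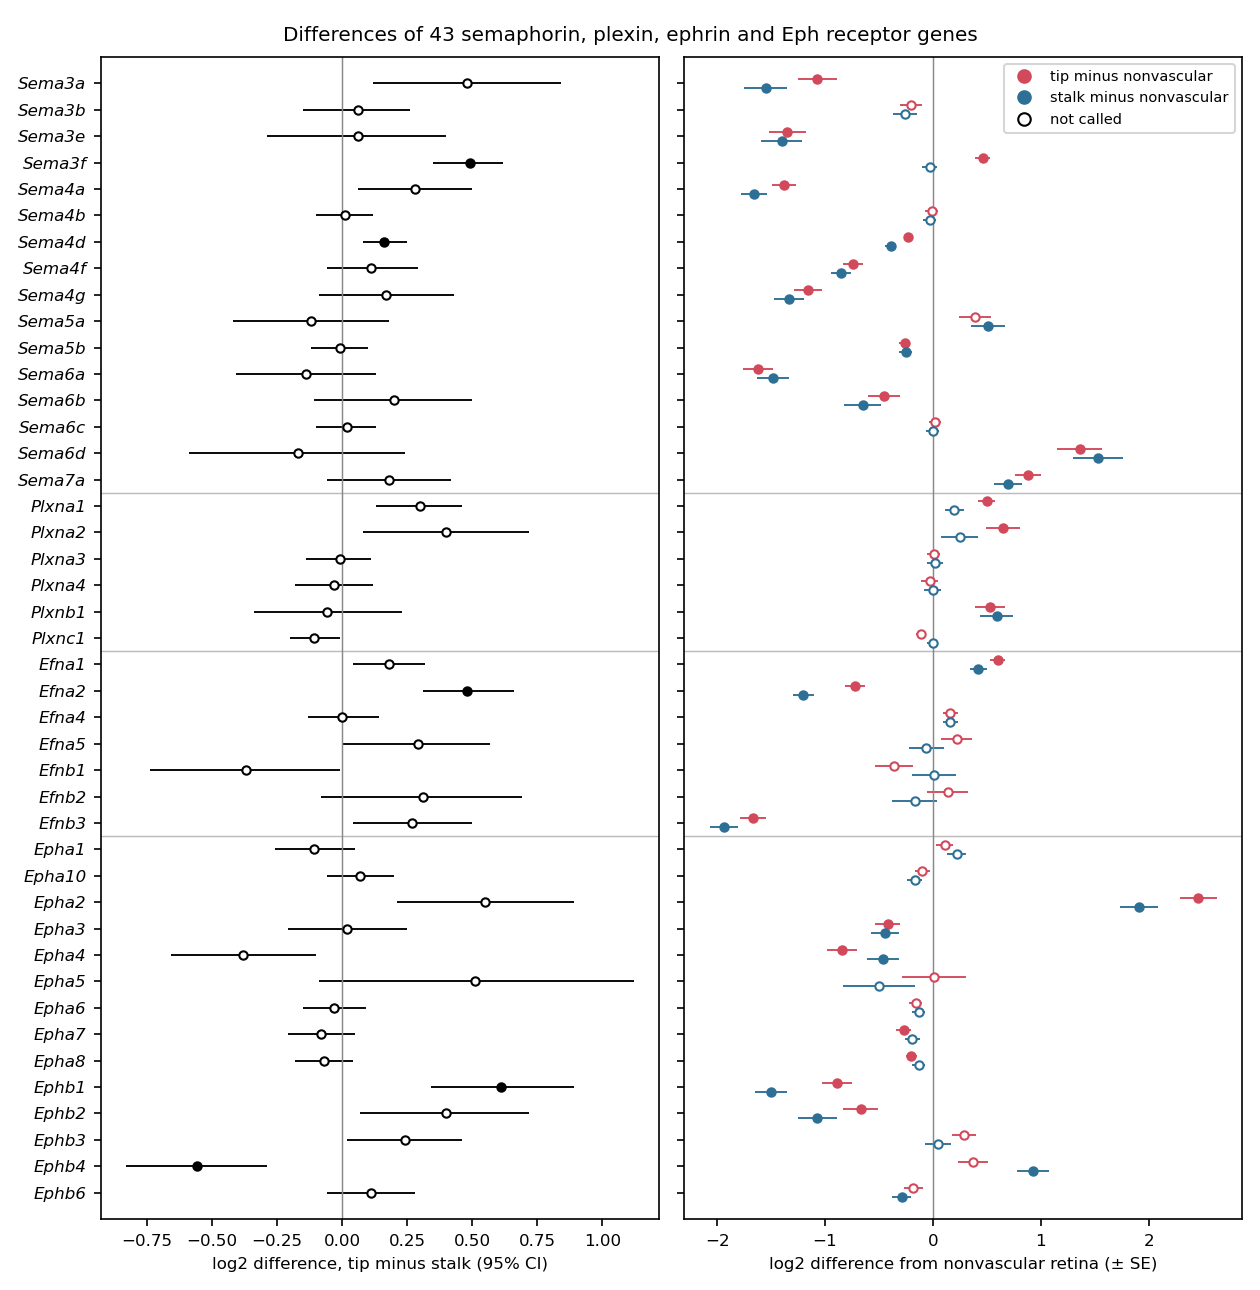
Log2 differences of the 43 members that passed the filter, by family. The left panel plots tip minus stalk with 95% intervals and the right panel tip minus nonvascular (red) and stalk minus nonvascular (blue) ± SE; filled points were called. In the right panel Efnb3 lies furthest to the left at -1.67 and -1.94 and Epha2 furthest to the right at 2.46 and 1.91, and no plexin was called lower.

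The counts by family stand beside shares of all genes of 11.1% higher and 16.8% lower in tip samples. In stalk samples these shares were 11.3% and 18.6%. Of 16 semaphorins, 9 were lower and 3 higher than nonvascular retina in tip samples, and likewise 9 and 3 in stalk samples. Of 6 plexins, 3 were higher in tip samples and 1 in stalk samples, and none was lower by the probe that stood for it. The second probe of Plxnb1 was called lower in stalk samples (-0.41 ± 0.10). Of 7 ephrins, 1 was higher and 2 were lower in each. Of 14 Eph receptors, 1 was higher and 6 lower in tip samples, and 2 were higher and 5 lower in stalk samples. No test was made of one family against another.

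Epha2, the receptor of ephrin-A1 known from endothelial cells, had the largest difference of all members between tip samples and nonvascular retina; in stalk samples that of Efnb3, at -1.94, was larger in size. It ran from 0.07 over a median of 0.56 to 0.82 in tip samples, against 0.28, -0.11, -0.43 and 0.03 in stalk samples and -1.91, -2.21 and -1.77 in nonvascular retina. All vessel arrays lay above all nonvascular ones, while tip and stalk arrays overlapped. It was 2.46 ± 0.17 higher in tip samples, 5.5-fold (adjusted p = 3.04e-07), and 1.91 ± 0.18 higher in stalk samples, 3.75-fold (adjusted p = 4.86e-06). Its ligand gene Efna1 followed the same order, with -0.48, -0.20 and -0.13 as the lowest, median and highest tip values, against -0.49, -0.36, -0.44 and -0.43 in stalk samples and -0.78, -0.90 and -0.87 in nonvascular retina. Efna1 was higher by 0.60 ± 0.07 in tip samples (adjusted p = 2.43e-05) and by 0.42 ± 0.08 in stalk samples (adjusted p = 0.000822).

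**Figure D3:**
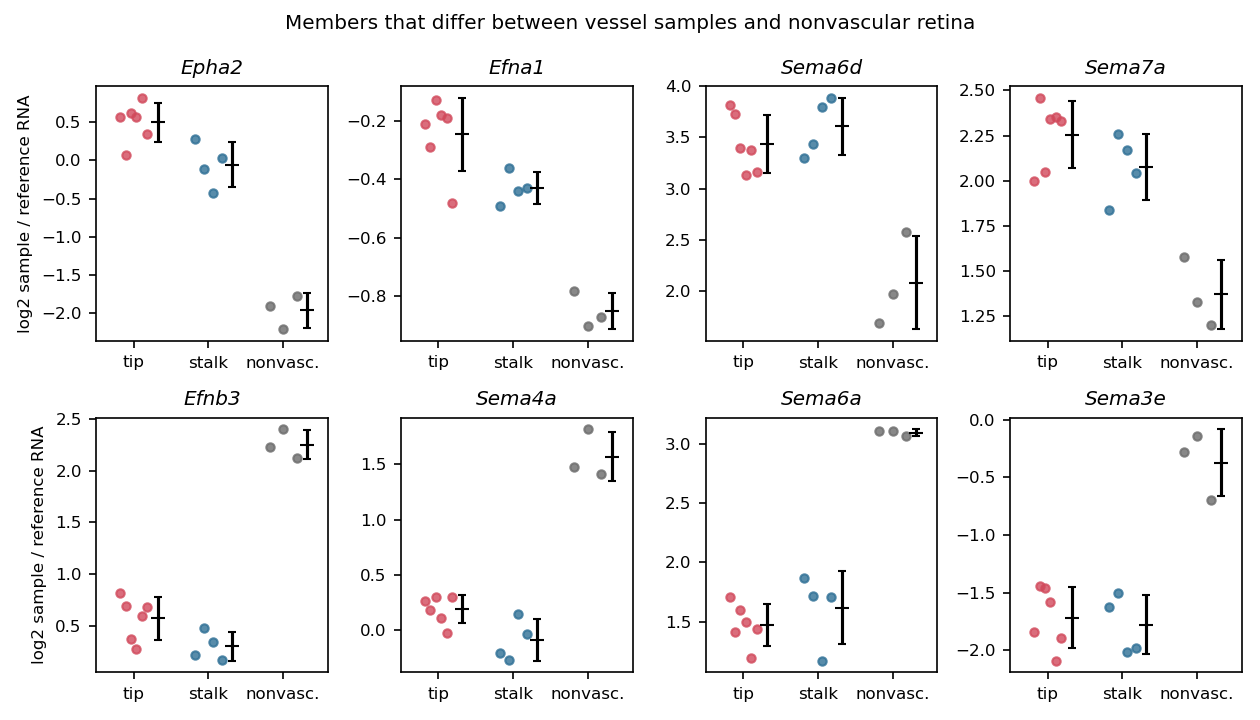
Log2 ratio of sample over reference RNA on each array for 8 members that differed between vessel samples and nonvascular retina, with tip, stalk and nonvascular arrays from left to right; bars are means ± SD (n = 6, 4 and 3), and each panel has its own vertical range. In the upper row (Epha2, Efna1, Sema6d, Sema7a) all tip and stalk arrays lie above the nonvascular ones, and in the lower row (Efnb3, Sema4a, Sema6a, Sema3e) all lie below. Sema6d and Sema6a are shown by the brighter of their 2 probes, and the other probe was not called.

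Semaphorins higher than in nonvascular retina were Sema6d and Sema7a in both vessel groups, Sema3f in tip samples and Sema5a in stalk samples. Sema6d, a transmembrane ligand of Plexin-A1, ran from 3.13 over 3.39 to 3.82 in tip samples, against 3.30, 3.44, 3.80 and 3.89 in stalk samples and 1.69, 1.97 and 2.58 in nonvascular retina. It was higher by 1.36 ± 0.21 in tip (adjusted p = 0.000255) and by 1.53 ± 0.23 in stalk samples (adjusted p = 0.000172). A second Sema6d probe gave 0.14 and 0.05, neither called (adjusted p = 0.0627 and 0.586). Sema7a, a lipid-anchored semaphorin that also binds integrins, ran from 2.00 over 2.34 to 2.46 in tip samples, against 1.84, 2.26, 2.17 and 2.04 in stalk samples and 1.58, 1.33 and 1.20 in nonvascular retina. It was higher by 0.88 ± 0.12 in tip (adjusted p = 0.000112) and by 0.70 ± 0.13 in stalk samples (adjusted p = 0.0012). Vessel and nonvascular arrays were separate for both genes. Sema5a, a transmembrane ligand that restricts neurites in the retina, overlapped between the groups, with tip arrays at 1.17, 1.24 and 1.40 (lowest, median, highest), stalk arrays at 1.28, 1.14, 1.54 and 1.54 and nonvascular arrays at 0.61, 0.60 and 1.38. It was called in stalk samples only, at 0.51 ± 0.16 (adjusted p = 0.031), and lost that call without stalk replicate 3 or 4 or nonvascular replicate 1 or 2 (adjusted p = 0.077 to 0.151), with median centring (adjusted p = 0.249), the mean of its probes (adjusted p = 0.277), only stalk and nonvascular arrays fitted (adjusted p = 0.118) or array brightness in the model (adjusted p = 0.203). Its difference in tip samples was 0.39 ± 0.15 (adjusted p = 0.0759).

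Of the plexins, Plxna1, Plxna2 and Plxnb1 were higher in tip samples than in nonvascular retina. Plxna1 was higher by 0.50 ± 0.08 (adjusted p = 0.000419), with nonvascular arrays at -0.20, -0.16 and 0.04, below all tip arrays; with median centring it was at 0.28 and not called (adjusted p = 0.224). Plxna2 ran from 0.16 over 0.36 to 0.84 in tip samples, against -0.17, 0.10, 0.15 and 0.08 in stalk samples and 0.11, -0.27 and -0.47 in nonvascular retina. It was higher by 0.65 ± 0.16 in tip samples (adjusted p = 0.00831), and by 0.52 without nonvascular replicate 3 (adjusted p = 0.0516). In stalk samples the differences from nonvascular retina were 0.20 ± 0.09 for Plxna1 (adjusted p = 0.11) and 0.25 ± 0.17 for Plxna2 (adjusted p = 0.335). Plxnb1, the Sema4D receptor, ran from 1.74 over 2.03 to 2.15 in tip samples, against 2.35, 2.04, 2.10 and 1.70 in stalk samples and 1.26, 1.36 and 1.76 in nonvascular retina. It was higher by 0.53 ± 0.14 in tip (adjusted p = 0.0134) and by 0.59 ± 0.15 in stalk samples (adjusted p = 0.011), and its nonvascular arrays overlapped with both. Without nonvascular replicate 1 both calls were lost (adjusted p = 0.0834 in tip and 0.0616 in stalk samples), and the tip call without nonvascular replicate 2 (adjusted p = 0.0661). Both were also lost with median centring (adjusted p = 0.131 in tip and 0.0863 in stalk samples) and with the mean of its probes (adjusted p = 0.196 and 0.588). The other 3 plexins, Plxna3, Plxna4 and Plxnc1, lay within -0.11 to 0.02 of nonvascular retina in both comparisons.

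The members called between tip and stalk differed in where they stood relative to nonvascular retina. Sema3f was higher in tip samples by 0.46 ± 0.07 (adjusted p = 0.00023), and its difference in stalk samples was -0.03 (interval -0.19 to 0.13). With its second probe it was higher in both, by 1.26 ± 0.12 in tip and 0.54 ± 0.13 in stalk samples (adjusted p = 5.18e-06 and 0.00738). Ephb4 was higher in stalk samples by 0.93 ± 0.15, 1.9-fold (adjusted p = 0.000343). In tip samples its difference was 0.37 ± 0.14 (adjusted p = 0.0671), with all tip arrays above the nonvascular ones. Ephb1, Efna2 and Sema4d were lower in both vessel groups. Ephb1 was lower by 0.89 ± 0.14 on the log2 scale in tip samples (adjusted p = 0.000281) and by 1.5 ± 0.15 in stalk samples (adjusted p = 6.11e-06). For Efna2 the differences were -0.72 ± 0.09 in tip (adjusted p = 4.11e-05) and -1.20 ± 0.10 in stalk samples (adjusted p = 8.98e-07), and for Sema4d -0.23 ± 0.04 (adjusted p = 0.00119) and -0.39 ± 0.05 (adjusted p = 2.69e-05). The tip call of Sema4d was lost with Feature Extraction log ratios (adjusted p = 0.0573) and the mean of its probes (adjusted p = 0.0649), and with the red channel alone its difference was 0.23 in tip (adjusted p = 0.522) and -0.13 in stalk samples (adjusted p = 0.774).

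Ligands lower in vessel samples came from both families. Efnb3, the ephrin-B3 gene known as a midline barrier for axons, ran from 0.28 over 0.64 to 0.82 in tip samples, against 0.22, 0.48, 0.35 and 0.17 in stalk samples and 2.23, 2.40 and 2.12 in nonvascular retina. The vessel arrays lay below the nonvascular ones with differences of -1.67 ± 0.12 in tip, 3.19-fold lower (adjusted p = 3.18e-07), and -1.94 ± 0.13 in stalk samples, 3.85-fold lower (adjusted p = 1.72e-07). Sema4a, a transmembrane semaphorin needed for photoreceptor survival, ran from -0.02 over 0.22 to 0.30 in tip samples, against -0.20, -0.27, 0.15 and -0.03 in stalk samples and 1.48, 1.82 and 1.41 in nonvascular retina. Its differences were -1.38 ± 0.11 in tip (adjusted p = 9.62e-07) and -1.66 ± 0.12 in stalk samples (adjusted p = 3.75e-07), again without overlap. Sema6a, a transmembrane ligand of Plexin-A2 and Plexin-A4 that sorts retinal layers, ran from 1.19 over 1.47 to 1.71 in tip samples, against 1.87, 1.72, 1.17 and 1.71 in stalk samples and 3.11, 3.11 and 3.06 in nonvascular retina. Its differences were -1.62 ± 0.14 (adjusted p = 1.7e-06) and -1.48 ± 0.15 (adjusted p = 6.94e-06). A second Sema6a probe gave -0.05 and -0.09, neither called (adjusted p = 0.646 and 0.399). The vessel arrays of Sema4g, a less studied transmembrane semaphorin, were also all below the nonvascular ones, at 0.47, 0.60 and 1.15 (lowest, median, highest) in tip samples, against 0.35, 0.57, 0.50 and 0.67 in stalk samples and 1.77, 2.03 and 1.76 in nonvascular retina. Its differences were -1.16 ± 0.13 (adjusted p = 2.09e-05) and -1.33 ± 0.14 (adjusted p = 1.17e-05).

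The secreted repellents Sema3a and Sema3e were lower in vessel samples as well. Sema3e, the ligand of Plexin-D1 that retinal ganglion cells are known to make, ran from -2.09 over -1.71 to -1.44 in tip samples, against -1.62, -1.5, -2.01 and -1.98 in stalk samples and -0.28, -0.14 and -0.70 in nonvascular retina. Tip and stalk arrays overlapped widely, and all lay below the nonvascular ones, by 1.35 ± 0.17 on the log2 scale in tip (adjusted p = 5.64e-05) and by 1.40 ± 0.19 in stalk samples (adjusted p = 7.17e-05). Sema3a, which acts through neuropilin-1, ran from -1.68 over -1.34 to -1.25 in tip samples, against -2.02, -1.97, -2.03 and -1.48 in stalk samples and -0.04, -0.07 and -0.87 in nonvascular retina. Its differences were -1.07 ± 0.18 in tip (adjusted p = 0.000548) and -1.55 ± 0.20 in stalk samples (adjusted p = 4.72e-05), with nonvascular replicate 3 nearest to the vessel arrays. A second Sema3a probe gave 0.23 in tip and -0.11 in stalk samples, neither called (adjusted p = 0.289 and 0.645). Marker sums of ganglion, amacrine and horizontal, photoreceptor and microglia cells were also highest in nonvascular retina. The ganglion cell sums of tip and stalk samples overlapped. What part these cells had in the differences was not tested.

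Among receptors lower in vessel samples, Epha4 ran from 1.49 over 1.85 to 2.17 in tip samples, against 2.10, 2.54, 2.08 and 2.14 in stalk samples and 2.58, 2.77 and 2.68 in nonvascular retina. It was lower by 0.84 ± 0.14 in tip samples on the log2 scale (adjusted p = 0.000551), and its difference of -0.46 ± 0.15 in stalk samples (adjusted p = 0.0383) lost its call without any 1 of tip replicate 2, stalk replicates 1, 3 and 4 or the 3 nonvascular arrays (adjusted p = 0.0508 to 0.129). That call was also lost with Feature Extraction log ratios, deposited ratios, the red channel alone, the mean of its probes and array brightness in the model (adjusted p = 0.0509 to 0.511). Ephb2 ran from -0.60 over -0.35 to -0.17 in tip samples, against -0.83, -0.64, -0.90 and -0.62 in stalk samples and 0.87, 0.14 and -0.05 in nonvascular retina. Its arrays were separate in the order nonvascular, tip, stalk, as for Ephb1, with differences of -0.67 ± 0.16 in tip (adjusted p = 0.00752) and -1.07 ± 0.18 in stalk samples (adjusted p = 0.00045). Second probes gave 0.11 in tip and 0.03 in stalk samples for Epha4 and 0.04 and 0.00 for Ephb2, none of them called. The other lower members were Sema4f (-0.74 in tip and -0.85 in stalk samples), Sema6b (-0.45 and -0.65), Epha3 (-0.42 and -0.44) and Sema5b (-0.26 and -0.25), and in 1 comparison each Epha7 (-0.27, tip), Epha8 (-0.20, tip) and Ephb6 (-0.29, stalk). Calls were lost without 1 array for 5 of these genes: Epha7 without nonvascular replicate 2 (adjusted p = 0.0605), Epha8 without nonvascular replicate 1 (adjusted p = 0.0752), Epha3 in both comparisons without nonvascular replicate 1 or 3 (adjusted p = 0.0779 to 0.0846), Ephb6 without stalk replicate 1 or 2 or nonvascular replicate 1 or 2 (adjusted p = 0.0673 to 0.171) and Sema6b in stalk samples without nonvascular replicate 2 (adjusted p = 0.0509). The tip call of Sema6b, with an adjusted p of 0.045, was lost without any 1 of 10 arrays. Sema5b lost its stalk call with Feature Extraction log ratios (adjusted p = 0.068), median centring (adjusted p = 0.0579), the red channel alone (adjusted p = 0.202) and the mean of its probes (adjusted p = 0.331), and its tip call with the mean of its probes (-0.03, adjusted p = 0.848). Sema4f kept both calls under its 24 settings. Of 24 settings, or 25 for Epha3, the calls held under 22 for Epha7, 19 for Epha8 and 16 for Ephb6, under 20 in tip and 17 in stalk samples for Epha3, and under 6 in tip and 19 in stalk samples for Sema6b.

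In the order of the group means, 23 members were highest in nonvascular retina, 12 in tip samples and 8 in stalk samples. Orders were not counted over all genes, so these counts have no share beside them. Some orders rest on nearly equal means, as for Sema6c at -0.17, -0.18 and -0.18 in tip, stalk and nonvascular samples. The most frequent order, for 16 members, was nonvascular, then tip, then stalk. In that order tip and stalk neighbours differed past the test for Ephb1, Efna2 and Sema4d and for none of the other 13. The 15 members called in neither comparison with nonvascular retina were Efna4, Efna5, Efnb1, Efnb2, Epha1, Epha10, Epha5, Epha6, Ephb3, Plxna3, Plxna4, Plxnc1, Sema3b, Sema4b and Sema6c.

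For 16 members the array carried 2 probes, and the brighter stood for the gene. In most of them the other probe did not show the same difference. Of 10 such genes called between tip samples and nonvascular retina, the other probe was called in the same direction for 1, Sema3f (1.26 ± 0.12), and was not called for 9. Of 10 called between stalk samples and nonvascular retina it was not called for 9, and for Plxnb1 it was called the other way, at -0.41 ± 0.10 (adjusted p = 0.00802). The second Sema3f probe alone was higher in stalk samples than in nonvascular retina, by 0.54 ± 0.13 (adjusted p = 0.00738). The other probe gave -0.05 in tip and -0.09 in stalk samples for Sema6a, 0.14 and 0.05 for Sema6d, 0.23 and -0.11 for Sema3a, 0.11 and 0.03 for Epha4 and 0.04 and 0.00 for Ephb2. Some of these probes were dim: of 13 arrays, the other probe was well above background on 4 for Ephb2, 6 for Epha3, 7 for Sema6d and 11 each for Sema3a and Sema6a. For Epha4, Plxnb1, Sema4d, Sema5a and Sema5b it was well above background on all 13 arrays. Which transcripts each probe binds was not tested. Epha2, Efna1, Efna2, Efnb3, Ephb1, Ephb4, Sema3e, Sema4a, Sema4g and Sema7a had 1 probe each.

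**Figure D4:**
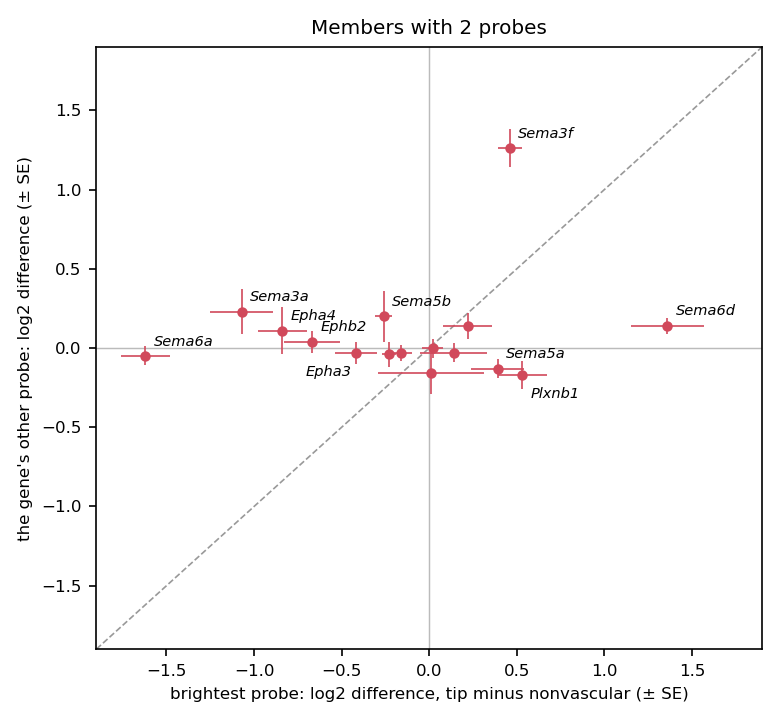
Log2 difference of tip minus nonvascular (± SE) from the brighter probe (horizontal axis) and from the other probe (vertical axis) for the 16 members with 2 probes; the dashed line marks equal values. Sema3f lies far above 0 on both axes, at 0.46 and 1.26, while the other members lie within -0.17 to 0.23 on the vertical axis.

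Other genes of these pathways were counted from 3 lists. Of 5 semaphorin co-receptors, none was called between tip and stalk: Nrp1 and Nrp2, the neuropilins, had differences of 0.35 (adjusted p = 0.225) and -0.06 (adjusted p = 0.636). Kdr, the VEGF receptor that is also an endothelial marker, was the co-receptor called higher than nonvascular retina, by 0.89 in tip and 1.55 in stalk samples. Of 24 measured plexin effectors, tip samples had 1 higher and 1 lower than stalk samples, 6 higher and 9 lower than nonvascular retina, and stalk samples had 4 higher and 11 lower than nonvascular retina. The shares of all genes called higher and lower are 1.47% and 1.32% between tip and stalk, 11.1% and 16.8% in tip samples and 11.3% and 18.6% in stalk samples against nonvascular retina. Dpysl3, a collapsin response mediator that passes semaphorin signals to microtubules, was higher in tip than in stalk samples by 0.76 ± 0.13 (adjusted p = 0.00909), and Mical1, an enzyme that oxidises actin downstream of plexins, was lower by 0.51 ± 0.10 on the log2 scale (adjusted p = 0.0227). The effectors with the largest differences from nonvascular retina were Dpysl2 (-2.20 in tip and -2.40 in stalk samples), Dpysl4 (-1.93 and -1.97) and Dpysl3 (-1.88 and -2.65). Of 22 Eph and ephrin effectors, 1 was lower in tip than in stalk samples, the focal adhesion kinase gene Ptk2 (-0.53 ± 0.08, adjusted p = 0.00307), and none was higher. Against nonvascular retina 5 were higher and 9 lower in tip samples, and 2 higher and 10 lower in stalk samples, to be read against the same shares of all genes, with Grip1, an adaptor that binds ephrin-B tails, at -1.61 in tip and -1.84 in stalk samples.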

How the data were processed

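RNA of 6 tip, 4 stalk and 3 nonvascular retina samples was amplified with a low-input kit and hybridised in Cy5 against reference RNA in Cy3 without dye swaps, per the labels' protocols. The submitters' processing notes name Agilent Feature Extraction 8.5.1.1. Per the file headers, the deposited scanner files hold mean and local background intensities, which are not normalized, and a log10 ratio of processed red over processed green signal. The authors deposited a value table of linear red over green ratios, and these equalled the antilog of that log10 ratio within 0.001 on the log10 scale at 99.94% of probes or more on every array.

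Log2 ratios were computed with limma 3.58.1 in R 4.3.3, with data.table in version 1.17.8, by normexp background correction (offset 50), loess within each array, control spots left out, outlier spots missing and repeated spots averaged. The brightest probe stood for a gene. All 13 arrays entered 1 model of 3 group means (lmFit, eBayes), and p-values were adjusted by Benjamini-Hochberg within each comparison. Array brightness, the median in red after background, lay between 98.1 and 292. Stalk arrays were at 98.1 to 141, tip arrays at 105 to 292 and nonvascular arrays at 166 to 282. Every stalk array was thus dimmer than every nonvascular array, so brightness and group cannot be fully told apart in that comparison. Between 85.0% and 95.4% of spots passed the scanner software's background test in red. The shares were 85% to 91.8% for stalk, 87% to 95.4% for tip and 91% to 94.6% for nonvascular arrays. Precision is limited by how many arrays each group had. On simulated data for tip minus stalk (32035 genes), 58 of 100 differences of 0.5 and 93 of 100 of 1 were recovered, with 5 false calls. The simulated noise was normal, independent between genes and of the same spread in all groups. Only these genes were changed, all upward in tip samples, so the shares recovered in the real data may differ.

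Probes were named through the RefSeq accession in the files; promoters are RefSeq's. The files name no genome build, so no probe position is given. The members, the pathway and marker lists and the naming rule were chosen with earlier results of these data known. Full values are given for members called between tip and stalk, the 8 largest called differences per direction against nonvascular retina and 14 genes known from vessel or axon growth, of which Plxnd1 and Sema3g had no probe by the rule and Sema3c no value; other members are given by counts and ranges, with a value where one is singled out. Pathway genes were named where called between tip and stalk or among the 3 largest against nonvascular retina, and Nrp1 and Nrp2 beyond that rule. Alternatives changed the background correction, the scaling, the probe summary, the filter, the groups fitted and the arrays left out.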

Additional observations from a re-analysis of the deposited data

Results flagged for a closer look

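In 6 of 86 sets of arrays (a member in tip or in stalk samples), 1 array stood apart from the rest of its group beyond Dixon's 95% limit, which chance passes in about 1 of 20 sets. Efnb1 was at -0.22 in tip replicate 5, the array scanned on another day, with the other tip arrays between 0.17 and 0.33. The other 5 sets were in stalk samples. Epha3 was at 0.39 in stalk replicate 4, against 0.14 and 0.15 in the others. Epha4 was at 2.54 in stalk replicate 2, with the others between 2.08 and 2.14. Ephb1 was at 0.37 in stalk replicate 1, against 0.86 to 0.91. Sema3a was at -1.48 in stalk replicate 4, against -2.03 to -1.97. Sema4f was at 0.01 in stalk replicate 3, against -0.23 to -0.20.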

How the results depend on the processing

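The counts of called members against nonvascular retina stayed within 1.5 times of those reported under each setting tried but 1: with the other probe of the 16 genes that have 2, chosen after seeing the data, 10 members were lower in tip and 10 in stalk samples, with 6 and 5 higher. Leaving out 1 array gave 7 to 10 higher and 14 to 18 lower members for tip samples and 5 to 8 higher and 13 to 17 lower for stalk samples. Between tip and stalk it gave 2 to 5 higher and 0 to 1 lower. The higher count there was 2 with Feature Extraction log ratios, deposited ratios, the red channel alone, array brightness in the model or the replicate number as a block, and 1 with median centring. The lower count was 0 with median centring, with only these 2 groups fitted, with array brightness in the model or with the replicate block. Deviations from the group means correlated at -0.144 to 0.0824 over the 10 pairs of samples with the same replicate number in different groups. Pairs of unlike number were not set beside them, so whether replicate numbers pair the samples was not settled. With the replicate block Ephb1 and Ephb4 were not called between tip and stalk (adjusted p = 0.0819 and 0.0903), and 8 members were higher and 13 lower in tip samples and 6 higher and 14 lower in stalk samples than in nonvascular retina. Over all genes, tip against stalk gave 471 higher and 422 lower calls, but 308 and 390 with the deposited ratios, 77 and 148 with array brightness in the model, 381 and 293 with the replicate block, 254 and 274 without tip replicate 2, 248 and 299 without tip replicate 3, 1021 and 584 without tip replicate 6, 187 and 258 without stalk replicate 1 and 201 and 267 without stalk replicate 3. Tip against nonvascular retina gave 3571 higher calls, and 2186 with median centring. Sizes also moved with the setting, for some genes by far more than the SE. Between tip samples and nonvascular retina, Efna1 ran from 0.53 to 1.33, Sema7a from 0.69 to 1.51 and Sema4f from -1.49 to -0.63. Epha2 moved less, from 2.34 to 2.71.

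Some differences changed sign. The other probe of a gene gave 0.03 for Epha3 and for Epha4 in stalk against nonvascular samples. It gave 0.11 (tip against nonvascular) and 0.08 (tip against stalk) for Epha4, and 0.00 (stalk) and 0.04 (tip) for Ephb2 against nonvascular retina. For Plxnb1 it gave -0.41 (stalk) and -0.17 (tip), for Sema3a 0.23 and for Sema5b 0.20 in tip samples, for Sema5a 0.00 in stalk samples, and for Sema6d 0.09 between tip and stalk. The red channel alone gave 0.23 for Sema4d and 0.14 for Sema5b in tip against nonvascular samples, and -0.04 for Sema3e and 0.15 for Sema6d between tip and stalk. Sema3e, not called there, was at -0.12 with array brightness in the model, -0.02 without stalk replicate 3 and -0.01 without stalk replicate 4. The cause was not tested. A fit with the slide as a block was not run, since each slide held 1 array. The dimmest probes, such as those of Sema3c and Sema3d, limit what these arrays show.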
